A study of Mus musculus with 6 samples.

Results

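Cnmd, Gabbr2 and Clec2h are 3 genes of mouse liver whose transcripts were counted far lower when the transcription factor XBP1 was missing from the liver. They were chosen by symbol, with the fall in this contrast already known, and are 3 of the 54232 genes counted and of the 13986 that passed the low-count filter. RNA was sequenced from livers of male C57BL/6 mice on chow, aged 8 to 10 weeks. The DKO group, with 3 libraries, lacked FXR, the nuclear bile acid receptor (Fxr-/-), and lacked Xbp1 in the liver (Xbp1LKO). The SKO group, with 3 libraries, was also Fxr-/- and carried floxed but intact Xbp1 alleles (Xbp1fl/fl). All 6 libraries are therefore FXR-null, and livers with FXR were not analysed here. What drives the deletion of Xbp1 is not stated in the labels. In all 3 DKO titles and in 1 SKO title 2 numbers are joined, and whether those livers were pooled is not stated. P-values cover the spread among these 6 libraries, part of which may be technical.

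Cnmd encodes chondromodulin, a membrane-anchored precursor with a BRICHOS domain from which a secreted glycoprotein is cut. Chondromodulin is known from cartilage as an inhibitor of blood vessel growth. Gabbr2 encodes a subunit of the GABA-B receptor, a G-protein-coupled receptor for the neurotransmitter GABA that works as a pair of GABBR1, which binds GABA, and GABBR2, which couples to inhibitory G proteins and brings GABBR1 to the cell surface. Clec2h encodes Clr-f, a C-type lectin-like membrane protein of the mouse Clr family, whose members are known as ligands of the NKR-P1 receptors (Klrb1 genes) on natural killer cells and other lymphocytes. The 3 proteins differ in function and family, and each is inserted into the membrane of the endoplasmic reticulum (ER) as it is made. XBP1 acts in the unfolded protein response and becomes an active transcription factor when the ER sensor IRE1 splices its mRNA, and it is known in liver for driving genes of the secretory pathway and of lipid synthesis. IRE1 is also known to cut other mRNAs, often within CTGCAG.

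The genes lie on 3 chromosomes of mm10. Cnmd (ENSMUSG00000022025) spans chr14:79637690-79662170 on the minus strand, Gabbr2 (ENSMUSG00000039809) spans chr4:46662305-46991873 on the minus strand, and Clec2h (ENSMUSG00000030364) spans chr6:128662385-128677374 on the plus strand. No other counted gene overlapped any of them on either strand. The 250 bases before each gene's RefSeq start were searched because the genes share a contrast in which a transcription factor was deleted. Gene spans here are from GENCODE M21, and for Gabbr2 the RefSeq start lies inside that span, so that 159 of its 250 bases, chr4:46991715-46991964, fall within the GENCODE gene, in its first exon. The 91 bases of it that lie outside are shown, chr4:46991874-46991964, and all 250 bases for Cnmd, chr14:79662184-79662433, and for Clec2h, chr6:128662135-128662384. The sequences are from RefSeq on GRCm38.p6, read 5′ to 3′ on the gene's strand.
Cnmd: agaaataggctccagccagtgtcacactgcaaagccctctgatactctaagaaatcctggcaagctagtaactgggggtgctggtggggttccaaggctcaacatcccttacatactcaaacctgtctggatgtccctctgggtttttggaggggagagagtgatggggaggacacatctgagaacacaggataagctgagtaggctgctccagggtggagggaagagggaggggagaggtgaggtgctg
Gabbr2: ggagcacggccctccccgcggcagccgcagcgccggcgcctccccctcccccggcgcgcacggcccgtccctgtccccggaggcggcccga
Clec2h: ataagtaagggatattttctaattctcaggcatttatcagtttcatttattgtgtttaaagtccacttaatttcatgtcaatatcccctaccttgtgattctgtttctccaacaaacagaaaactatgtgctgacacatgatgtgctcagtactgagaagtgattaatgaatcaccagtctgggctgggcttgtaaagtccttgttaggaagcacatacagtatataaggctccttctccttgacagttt

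The 250-base windows had little in common. Gabbr2 was 80.8% G and C with 37 CG dinucleotides, more G and C than 99.0% of 32851 RefSeq promoters, whose median was 52.4%. Cnmd was 54.0% and Clec2h 37.2% G and C, and neither held a CG dinucleotide, against a median of 6. ACGT, the core shared by sites of the XBP1 and ATF family, occurred 1 time, in the window of Gabbr2, 82 bases before the RefSeq start and within the GENCODE exon, so outside the bases shown. It occurred in neither of the others, and 26.9% of all promoters hold it in a window of the same length. Both strands were also searched for the unfolded protein response element TGACGTGG, held by 0.563% of promoters, for the ER stress element (CCAAT, 9 bases of any kind, CCACG), held by 0.113%, and for its second form (ATTGG, 1 base, CCACG), held by 0.0304%. Of the shorter parts that overlap these motifs, CCACG is held by 28.3% of promoters, TGACG by 17.8% and CCAAT by 33.8%. None of these letters were found in the 3 windows. A match or its absence in these windows describes the letters only.

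Coding sequences were searched for CTGCAG, as in the stretches shown next, where it stands in capitals and positions count from 1 at the A of the start codon. They are bases 948 to 977 of Cnmd, bases 1090 to 1119 and 2356 to 2385 of Gabbr2, and bases 28 to 90 of Clec2h.
Cnmd: atgccgctcggcCTGCAGagtcgtcatgcc
Gabbr2, first: atcgccaagaccCTGCAGagggccatggag
Gabbr2, second: cgcctggagggaCTGCAGtcagaaaaccac
Clec2h: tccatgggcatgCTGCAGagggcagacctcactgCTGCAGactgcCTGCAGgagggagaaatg

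Clec2h held CTGCAG 3 times within its 654 coding bases, all in the stretch shown, at bases 40, 62 and 73. That is 4.59 per kb, a higher density than in 99.0% of the 12703 tested genes with a complete coding sequence, whose median was 0.923 per kb. Cnmd held it 1 time in 1014 bases and Gabbr2 2 times in 2820 bases, or 0.986 and 0.709 per kb, near the median. Of these tested genes 71.9% held it at least 1 time, and no cleavage was measured here.

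The libraries held 18382107 to 21107674 counts in DKO and 16966422 to 20211285 in SKO. Values below are CPM, read counts scaled to library totals that were adjusted by TMM factors. Xbp1 itself was 95.7, 67.0 and 68.2 CPM in DKO libraries 1 to 3, against 225, 260 and 254 CPM in SKO libraries 1 to 3, lower in each DKO library (log2 -1.68 ± 0.14 SE, edgeR adjusted p = 0.000146); reads from exons that were not deleted are not told apart here. On the first principal component, which held 64.7% of the variance, DKO replicate 1 stood at 39.3, further from SKO than the other DKO libraries at 16.1 and 22.8. Listed hepatocyte markers summed to between 55761 and 68709 CPM in DKO and between 85761 and 113342 CPM in SKO. Most of this was Alb, with a mean of 35757.7 CPM in DKO and 66408.5 CPM in SKO. Of these markers 6 of 12 fell (Alb, Ttr, Apoa1, Apob, Serpina1a and Cyp2f2) while none rose. The other 6, Cps1, Ass1, Hnf4a, Asgr1, Tat and G6pc, were not called. Stellate cell markers summed to 568 to 778 CPM in DKO and 371 to 425 CPM in SKO, and 6 of 11 rose (Col1a1, Dcn, Rgs5, Pdgfrb, Hand2 and Des) while none fell. Over all genes tested, 20.0% were called, 9.70% lower and 10.3% higher, at an edgeR adjusted p under 0.05. In bulk liver, fewer cells of a type and less RNA per cell cannot be told apart, and the part of these shifts in the values of the 3 genes was not tested.

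Cnmd was almost lost in DKO. It had 8, 5 and 8 counts in DKO libraries 1 to 3 (0.336, 0.244 and 0.415 CPM), against 75, 61 and 87 counts in SKO libraries 1 to 3 (4.76, 3.34 and 4.90 CPM). Every DKO library lay below every SKO library, and the exact 95% Poisson intervals of the highest DKO count (3.45 to 15.8) and the lowest SKO count (46.7 to 78.4) were far apart. The mean was 0.332 ± 0.0854 CPM in DKO and 4.33 ± 0.861 CPM in SKO (SD, n = 3 each), so DKO livers held 7.65% of the SKO level, a log2 fold change of -3.68. The lowest SKO library was 8.06-fold above the highest DKO library. In SKO, 25.7% to 30.3% of tested genes were lower than Cnmd, while in DKO 0.150% to 0.815% were and Cnmd passed the low-count filter through its SKO libraries. Counting intervals cover counting error only.

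Gabbr2 was the most abundant of the 3. Its counts were 166, 183 and 230 in DKO libraries 1 to 3 (6.97, 8.93 and 11.9 CPM), against 730, 879 and 789 in SKO libraries 1 to 3 (46.4, 48.2 and 44.4 CPM). The SKO libraries were tightly grouped, with a highest value 1.08 times the lowest, and the DKO libraries spread more, by 1.71 times, with DKO replicate 1 lowest. The groups did not overlap, and the lowest SKO library was 3.72-fold above the highest DKO library. The mean was 9.28 ± 2.49 CPM in DKO and 46.3 ± 1.88 CPM in SKO (SD, n = 3 each), a log2 fold change of -2.33, or 20.03% of the SKO level. Without DKO replicate 1 the log2 fold change was -2.15.

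Clec2h varied most within a group. Its counts were 32, 25 and 43 in DKO libraries 1 to 3 (1.34, 1.22 and 2.23 CPM), against 70, 200 and 169 in SKO libraries 1 to 3 (4.45, 10.96 and 9.51 CPM). SKO replicate 1 stood well below the other SKO libraries, and the SKO range was 2.47-fold against 1.46-fold for Cnmd. The groups still did not overlap, but the lowest SKO library was only 1.99-fold above the highest DKO library. The mean was 1.60 ± 0.550 CPM in DKO and 8.31 ± 3.42 CPM in SKO (SD, n = 3 each), a log2 fold change of -2.39 and 19.2% of the SKO level. Without SKO replicate 1 the log2 fold change was -2.69, and without SKO replicate 2 it was -2.15. All 3 genes had every DKO library below every SKO library, as did 19.4% of the genes tested, while 20.2% had every DKO library above every SKO library, and since the genes were chosen for this contrast that count is a description.

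**Figure D1:**
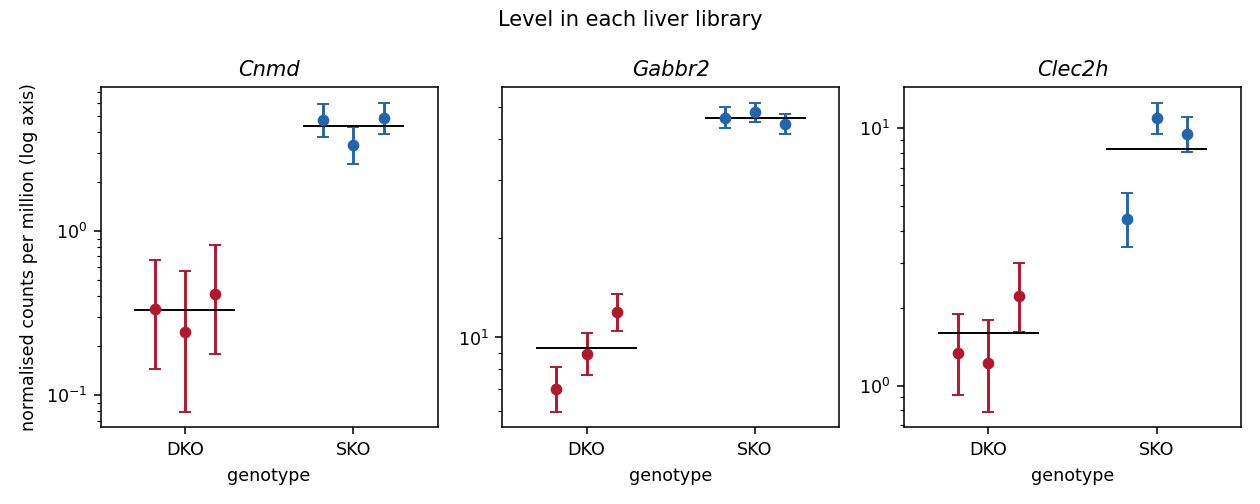
Normalised CPM (log axis) of Cnmd, Gabbr2 and Clec2h in each DKO and SKO liver library, with exact 95% Poisson intervals as bars and group means as lines. Each DKO library lies below each SKO library, and the Clec2h value of 4.45 CPM in SKO replicate 1 lies apart from 10.96 and 9.51 CPM in the others.

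By log2 fold change from the lowest, Cnmd ranked 2, Clec2h 13 and Gabbr2 14 over all 13986 genes tested. Among the 12704 of these that averaged 1 CPM or more, Cnmd had the lowest log2 fold change, Clec2h the tenth and Gabbr2 the eleventh. Of the 8 other genes at or above the place of Gabbr2, 4 were carboxylesterases of the Ces1 family, Ces1e, Ces1c, Ces1d and Ces1g, whose similar copies make the split of reads uncertain. The other 4 were the long non-coding RNA Gm34654, the pseudogenes Gm4956 and Serpina4-ps1, and Elovl3, a fatty acid elongase. Clec2h and Gabbr2 are thus not the largest falls outside the esterases. Elovl3, at -2.46, was not called by edgeR (adjusted p = 0.185) but was by limma-voom (log2 -3.33, adjusted p = 0.0138), with 1.60, 19.97 and 2.28 CPM in DKO and 63.3, 36.2 and 30.6 CPM in SKO. Just after Gabbr2 came Ces1f at -2.26, Dgat2, the last enzyme of triglyceride synthesis, at -2.25, and Retreg3, an ER-phagy receptor, at -2.23.

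**Figure D2:**
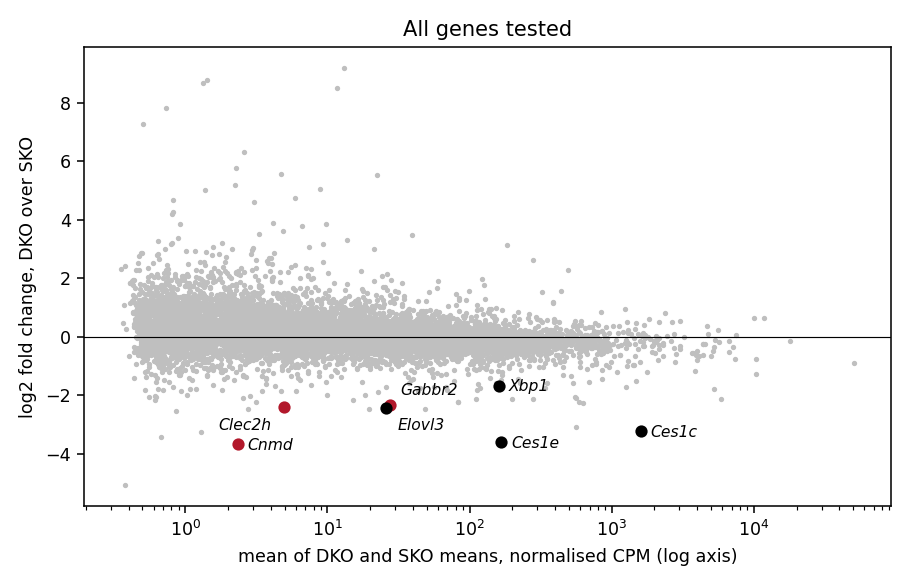
The log2 fold change of DKO over SKO against mean normalised CPM (log axis) for all 13986 genes tested, each a grey point, with the 3 described genes in red and Xbp1, Elovl3, Ces1c and Ces1e in black. Cnmd at -3.68 lies at the low edge at a low level, while Gabbr2 and Clec2h lie near -2.33 and -2.39.

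Divided by the length of all annotated exons of a gene, which allows a rough comparison between genes, Gabbr2 was highest in both groups. It averaged 1.39 CPM per kb in DKO and 6.93 in SKO, Clec2h 0.590 in DKO and 3.07 in SKO, and Cnmd 0.180 in DKO and 2.35 in SKO. In DKO the order held in every library, and Clec2h was 2.72 to 3.66 times Cnmd. In SKO the ranges of Clec2h (1.64 to 4.05 CPM per kb) and Cnmd (1.81 to 2.66) overlapped, and in SKO replicate 1 Clec2h was 0.635 times Cnmd. The ratio of Clec2h to Cnmd per kb thus ran from 0.635 to 2.23 within SKO. Pearson's r of log2(CPM + 0.5) over the 6 libraries was 0.976 between Cnmd and Gabbr2, 0.933 between Gabbr2 and Clec2h and 0.898 between Cnmd and Clec2h. With group means removed the values were 0.11, 0.41 and -0.23, so the likeness over 6 libraries rests on the group difference.

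The genes most like each of the 3, by r over the 6 libraries among 12704 genes, all had smaller falls than it. For Cnmd they were Abcb4, the canalicular phosphatidylcholine transporter (r = 0.997), A1cf, a factor for apolipoprotein B mRNA editing (r = 0.997), and Ormdl1, a regulator of sphingolipid synthesis (r = 0.997). For Gabbr2 they were Ireb2, an iron regulatory protein, Slc27a5, a bile acid-CoA ligase, and Retreg2, of the ER-phagy receptor family (r = 0.9997, 0.999 and 0.999). Slc27a5 was 456, 529 and 616 CPM in DKO libraries 1 to 3, against 1155, 1215 and 1148 CPM in SKO libraries 1 to 3 and its libraries stood in the same order within each group as those of Gabbr2. For Clec2h they were Keg1, Rapgef6, an exchange factor for Rap proteins, and Ppp2r3a, a phosphatase subunit (r = 0.999, 0.997 and 0.997). Keg1 shared the low value of SKO replicate 1, with 103, 102 and 124 CPM in DKO libraries 1 to 3 and 165, 238 and 235 CPM in SKO libraries 1 to 3. The named genes were picked by r over these same libraries, so the shared patterns follow from that choice. With this few libraries r above 0.9 was common, reached by 7.52%, 9.13% and 6.69% of genes for Cnmd, Gabbr2 and Clec2h.

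No tested relative of Cnmd and no tested cartilage marker was called lower. Only 3 and 4 genes passed the filter, and 9.70% of all genes tested were called lower. The lack of lower calls therefore does not set these lists apart. Of 9 other genes with a BRICHOS domain, 3 passed the filter, none was called lower and Itm2c rose, to 61.2 ± 7.19 CPM in DKO, against 41.0 ± 2.69 CPM in SKO (log2 0.58 ± 0.09 SE, edgeR adjusted p = 0.00298). Itm2b, the most abundant member and known for its cleaved forms in familial dementias, was 1261 ± 23.6 CPM in DKO and 1142 ± 57.4 CPM in SKO and was not called (adjusted p = 0.328). Tnmd, the closest relative of Cnmd and a tendon gene, was at 0 counts in all 6 libraries. The median log2 fold change of the 3 was 0.58, beside 0.006 over all genes tested. Of 12 cartilage markers 4 passed the filter and none was called by edgeR, Matn1 and Matn3 were at 0, and the defining genes Acan and Col2a1 had 9 and 2 counts in all libraries together. Prg4, a lubricating proteoglycan also made in liver, was 49.3 ± 7.29 CPM in DKO and 50.1 ± 19.5 CPM in SKO (adjusted p = 0.964), and Sox9 was 7.30 ± 4.004 CPM in DKO and 5.30 ± 1.22 CPM in SKO (adjusted p = 0.475). Hapln1, a cartilage link protein gene, was 0.882, 5.86 and 1.66 CPM in DKO libraries 1 to 3, against 0.381, 0.329 and 0.281 CPM in SKO libraries 1 to 3 (log2 3.05 ± 0.88, edgeR adjusted p = 0.056). Its groups did not overlap, DKO replicate 2 was highest, and it was called higher with DESeq2 (adjusted p = 6.7e-05), no filter, upper-quartile factors and total-count scaling, and without DKO replicate 1 or 2 (log2 3.50 and 1.90). Col11a2, a cartilage collagen gene, was 2.35 ± 1.06 CPM in DKO and 1.128 ± 0.436 CPM in SKO (log2 1.06 ± 0.41, edgeR adjusted p = 0.103), and it was called higher under total-count scaling, with no filter and without DKO replicate 2. The median log2 fold change of the 4 markers was 0.77, and the summed level of this list was 55.9 to 74.7 CPM in DKO and 37.9 to 76.5 CPM in SKO.

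Genes of blood vessel growth, the process chondromodulin is known to inhibit, moved in both directions. Of 16 tested, 2 rose, 2 fell and 12 were not called, with a median log2 fold change of 0.05. Over all genes tested 10.3% were called higher and 9.70% lower, so these counts do not set the list apart. The risers were the thrombospondins, secreted inhibitors of vessel growth. Thbs1 was 5.46, 4.198 and 3.89 CPM in DKO libraries 1 to 3, against 1.40, 1.42 and 1.86 CPM in SKO libraries 1 to 3 (log2 1.53 ± 0.22, edgeR adjusted p = 0.00168). Thbs2 was 12.3, 7.42 and 10.1 CPM in DKO, against 3.62, 3.95 and 3.21 CPM in SKO (log2 1.47 ± 0.20, edgeR adjusted p = 0.00117). Neither gene's groups overlapped. Vegfa, the main vessel growth factor, fell to 146 ± 7.49 CPM in DKO, against 178 ± 3.63 CPM in SKO (log2 -0.29 ± 0.07, edgeR adjusted p = 0.0239), and Serpinf1, another vessel inhibitor made in liver, fell to 607 ± 38.5 CPM in DKO, against 780 ± 50.3 CPM in SKO (log2 -0.36 ± 0.10, edgeR adjusted p = 0.0285). Both of these calls ended under total-count scaling (Vegfa log2 -0.07, Serpinf1 log2 -0.14) and without SKO replicate 2 or 3 or DKO replicate 3, that of Vegfa also without DKO replicate 2 and with upper-quartile factors (log2 -0.22), and that of Serpinf1 also without DKO replicate 1.

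Gabbr1, the gene of the partner subunit, was at a like level in both groups. It was 4.66, 3.76 and 4.56 CPM in DKO libraries 1 to 3, against 3.56, 3.89 and 4.95 CPM in SKO libraries 1 to 3 (log2 0.06 ± 0.19), which edgeR did not call (adjusted p = 0.842). Per kb of exon, Gabbr1 averaged 0.557 CPM in DKO and 0.532 CPM in SKO. Gabbr2 exceeded it by 1.74, 2.76 and 3.04 times in DKO libraries and by 15.1, 14.4 and 10.4 times in SKO libraries. Reads per kb of Gabbr2 thus exceeded those of its partner in all 6 libraries, by less in DKO. The length used joins all annotated exons of a gene, and which transcripts were expressed was not tested.

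**Figure D3:**
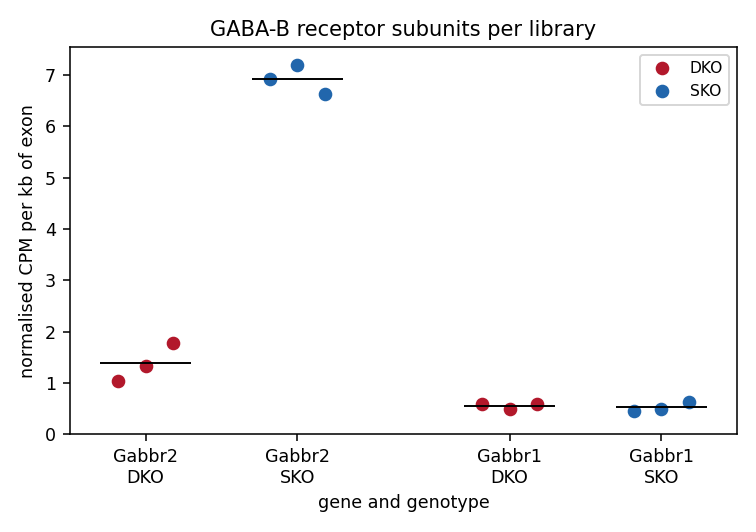
Normalised CPM per kb of exon of the GABA-B receptor subunit genes Gabbr2 and Gabbr1 in each DKO and SKO library, with group means as lines. Gabbr2 averages 1.39 in DKO and 6.93 in SKO, while Gabbr1 averages 0.557 and 0.532.

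Other listed parts of the GABA-B system differed widely in level in these livers. Of 16 listed partners and effectors 7 passed the filter, with 1 higher, none lower and a median log2 fold change of 0.25. Over all genes tested 10.3% were called higher and 9.70% lower. The riser was Gnai2, an inhibitory G protein subunit (135 ± 14.9 CPM in DKO, 110 ± 1.35 CPM in SKO, log2 0.29 ± 0.09, edgeR adjusted p = 0.0416), and this call ended without DKO replicate 1 or any SKO library and with limma-voom. Gnai3, another such subunit, was 138 ± 3.26 CPM in DKO and 136 ± 5.59 CPM in SKO (adjusted p = 0.845). The auxiliary subunits Kctd8 and Kctd16 and the effector potassium channels Kcnj3 and Kcnj6 were at 0 counts. The auxiliary subunits Kctd12 and Kctd12b were 7.99 ± 3.10 and 5.59 ± 1.07 CPM in DKO and 5.46 ± 0.548 and 5.07 ± 0.690 CPM in SKO, and neither was called.

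No gene of the GABA-A receptor or of GABA metabolism was called by edgeR. Only 1 and 6 of these genes passed the filter, and 20.0% of all genes tested were called. The lack of calls therefore does not set them apart. Of 19 GABA-A subunits, which form chloride channels, 1 passed the filter and 8 were at 0. It was Gabra3, at 5.59 ± 1.80 CPM in DKO and 3.36 ± 0.687 CPM in SKO (log2 0.75 ± 0.25, edgeR adjusted p = 0.0609), and it was called higher under total-count scaling, upper-quartile factors, no filter and without DKO replicate 2 (adjusted p of 0.0239, 0.0499, 0.00259 and 0.0293). Gabre, the next most abundant, was 0.402 ± 0.307 CPM in DKO and 0.303 ± 0.230 CPM in SKO. Of 11 genes for making, breaking down and carrying GABA, 6 passed the filter, and none was called by edgeR, with a median of -0.12. Abat, the transaminase that breaks down GABA, was 514 ± 77.9 CPM in DKO and 643 ± 26.1 CPM in SKO (log2 -0.32 ± 0.12, adjusted p = 0.0798), and Aldh9a1, which can make GABA from putrescine, was 320 ± 2.65 CPM in DKO and 376 ± 5.48 CPM in SKO (log2 -0.24 ± 0.08, adjusted p = 0.0564). DESeq2 called both lower (adjusted p = 0.0307 and 0.00882), limma-voom called Aldh9a1 lower, and the fits with no filter and without DKO replicate 2 called Abat lower. The synthesis genes Gad1 and Gad2 had 1 and 5 counts in all libraries together, while the GABA transporter gene Slc6a13 was 240 ± 11.2 CPM in DKO and 224 ± 13.9 CPM in SKO (adjusted p = 0.434).

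Gabbr2 is known from nerve tissue, so neuron and glia markers were read beside it. Snap25, Nefl, Nefm, Th and Dbh were at 0 counts in all 6 libraries. Of 14 listed, 5 passed the filter and none was called lower by edgeR, beside 9.70% of all genes tested. The summed level was 24.3 to 27.9 CPM in DKO and 19.9 to 32.9 CPM in SKO. Most of it was Syt1, at 21.4 ± 1.81 CPM in DKO and 25.1 ± 7.37 CPM in SKO (edgeR adjusted p = 0.479).

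Clec2d, the only other abundant gene of the Clec2 family here, fell in DKO as well, by less. It encodes Clr-b, the ligand of the inhibitory receptor NKR-P1B, and was 86.3, 108 and 98.3 CPM in DKO libraries 1 to 3, against 144, 142 and 139 CPM in SKO libraries 1 to 3. Its groups did not overlap (log2 -0.54 ± 0.09, edgeR adjusted p = 0.00323), and the call held in all 12 alternative fits. Per kb of exon Clec2d averaged 80.5 CPM in DKO and 116.7 CPM in SKO, so Clec2h was a small part of the family's transcripts in both groups, at 0.00739 ± 0.00258 times Clec2d in DKO and 0.0264 ± 0.0110 times in SKO. Clec2i was 0.809 ± 0.435 CPM in DKO and 0.649 ± 0.231 CPM in SKO and was not called (adjusted p = 0.660). The other listed relatives, Clec2e, Clec2f, Clec2g, Clec2j and Clec2l, had at most 1 count each in all libraries together. Of the stretches of 50 bases in Clec2h transcripts, 2.15% occurred in another gene's transcripts, most in Clec2i, and 1.98% of those of Clec2d did, while Cnmd and Gabbr2 shared none.

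Genes of the Klrb1 family, some of which encode receptors of Clr proteins, were near 0 in bulk liver. Of 5 Klrb1 genes only Klrb1c, the NK1.1 antigen gene, passed the filter, and it was not called (0.882 ± 0.360 CPM in DKO, 0.512 ± 0.217 CPM in SKO, log2 0.80 ± 0.44, edgeR adjusted p = 0.238). Klrb1b was 0.191 ± 0.0599 CPM in DKO and 0.0962 ± 0.116 CPM in SKO. Of 18 NK and T cell markers 7 passed the filter and none was called by edgeR, beside 20.0% of all genes tested. The most abundant were Ptprc, the pan-leukocyte gene (26.3 ± 6.49 CPM in DKO, 16.96 ± 3.10 CPM in SKO, adjusted p = 0.0683), and Il2rb (4.52 ± 0.440 CPM in DKO, 4.001 ± 1.93 CPM in SKO, adjusted p = 0.696). The list summed to 31.1 to 46.6 CPM in DKO and 22.2 to 35.3 CPM in SKO. Ptprc was called higher under total-count scaling, with DESeq2, with no filter and without DKO replicate 2 (adjusted p of 0.0277, 0.0116, 3.14e-07 and 0.00624).

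Clr-f is known from intestinal epithelium, so markers of that tissue were read beside Clec2h. The intestinal factors Cdx1 and Cdx2 were at 0. Of 10 markers 4 passed the filter, with 1 lower and 1 higher, beside 9.70% and 10.3% of all genes tested. Fabp2, the intestinal fatty acid binding protein gene, which these livers also express, was 18.01, 23.5 and 20.3 CPM in DKO libraries 1 to 3, against 65.2, 73.4 and 67.7 CPM in SKO libraries 1 to 3 (log2 -1.74 ± 0.10, edgeR adjusted p = 1.2e-05). Epcam, an epithelial gene that bile duct cells also express, was higher, at 4.97 ± 1.73 CPM in DKO and 2.13 ± 0.527 CPM in SKO (log2 1.24 ± 0.28, edgeR adjusted p = 0.0137), a call that ended without SKO replicate 2 or 3. The summed level was 54.4 to 55.6 CPM in DKO and 98.8 to 103 CPM in SKO, most of it Fabp2 and Lgals4, and the part of these markers in the values of Clec2h was not tested.

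**Figure D4:**
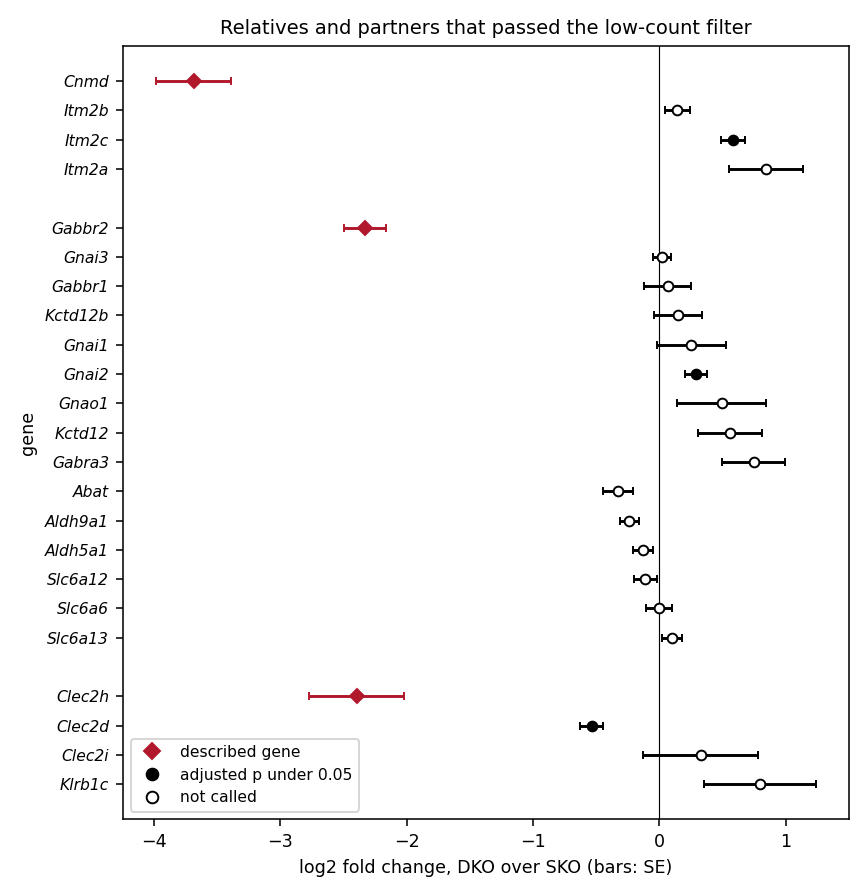
The log2 fold change of DKO over SKO (bars, SE) for Cnmd, Gabbr2 and Clec2h as red diamonds and for those of their listed relatives and partners that passed the low-count filter as circles, filled where the edgeR adjusted p was under 0.05. Only Clec2d, at -0.54, is called lower, and Itm2c and Gnai2 are called higher.

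The genes next to the 3 were mostly not called, like most genes tested, of which 9.70% were called lower and 10.3% higher. Of the 18 nearest protein-coding genes, 3 on each side of each gene, 12 passed the filter, 1 was lower, none was called higher and 6 were too low to test. Sugt1, 2.49 kb from Cnmd and known for kinetochore assembly, was 34.9 ± 0.627 CPM in DKO and 33.9 ± 2.03 CPM in SKO (adjusted p = 0.712), and Pcdh8, on the other side, was at 0 counts. Tbc1d2 and Anks6, the genes on either side of Gabbr2, were 1.53 ± 0.325 and 1.27 ± 0.0889 CPM in DKO and 1.05 ± 0.107 and 0.906 ± 0.192 CPM in SKO, and neither was called (edgeR adjusted p = 0.192 and 0.246). Clec2h lies in the natural killer gene complex between Klrb1a, with 3 counts in all libraries together, and Klrb1, at 0. The lower neighbour was Pzp, 136 kb from Clec2h, a secreted protease inhibitor, at 4006, 3605 and 4031 CPM in DKO libraries 1 to 3, against 5383, 6231 and 6644 CPM in SKO libraries 1 to 3 (log2 -0.65 ± 0.13, edgeR adjusted p = 0.00725). Sugt1 was called higher under total-count scaling (log2 0.27), and Col15a1 near Gabbr2 without SKO replicate 3.

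**Figure D5:**
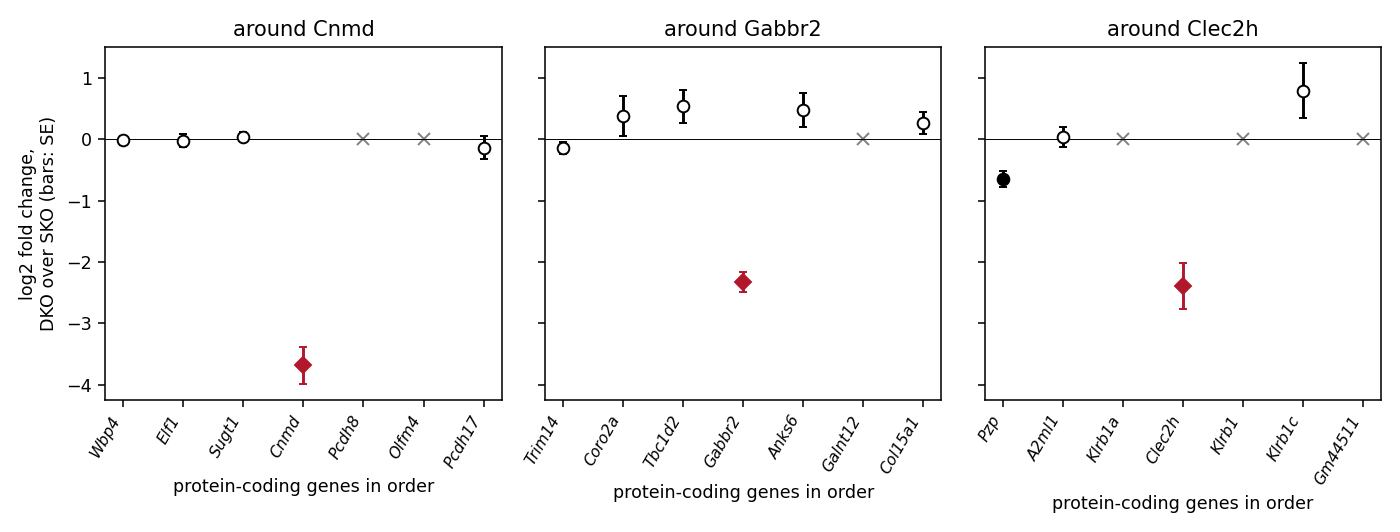
The log2 fold change of DKO over SKO (bars, SE) for Cnmd, Gabbr2 and Clec2h as red diamonds and for the 3 nearest protein-coding genes on each side as circles, filled where the edgeR adjusted p was under 0.05, in chromosome order. Grey crosses at 0 mark genes that were too low to test, and Pzp at -0.65 is the only called neighbour.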

How the data were processed

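Liver RNA was sequenced in 6 libraries, 3 DKO and 3 SKO. The authors deposited raw read counts, whole numbers per Ensembl gene, in a file for each. Tools listed, per the submitters' processing notes, are STAR, HTSeq 0.6.1p1, cutadapt 1.13 and DESeq2, with the build mm10; settings, annotation release and use of strand are not stated there. Of 54232 identifiers, 54079 matched GENCODE M21, an annotation of the mm10 assembly. Within a group, every pair of libraries differed beyond sampling noise (chi-square over its degrees of freedom, 11.2 to 32.6).

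Counts were filtered with filterByExpr and tested, DKO against SKO, by the robust quasi-likelihood test of edgeR 4.0.16 on R 4.3.3, scaled by TMM and checked on simulated data. P-values were adjusted by Benjamini-Hochberg over 13986 genes and called under 0.05. The standard error is the log2 fold change divided by the square root of F. Alternatives used other scaling, no filter, DESeq2 1.42.0, limma 3.58.1 voom, or 5 libraries. Replicate numbers follow accession order and pair nothing.

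The 3 genes, the 13 gene lists and the tests were chosen with earlier results of these data known, and the 3 genes get no test. The rule for other names takes up to 6 called members per list, or else the 2 most abundant, the nearest neighbours and any called one. It also takes 3 genes of highest r per gene, and genes averaging 1 CPM or more that fell more than Gabbr2. Chosen after their values were seen were Gabbr1, Clec2i, Itm2b, Tnmd, Hapln1, Col11a2, Gnai3, Kctd12, Kctd12b, Slc6a13, Lgals4, Col15a1, Ces1f, Dgat2, Retreg3 and the genes given at or near 0. So were Cps1, Ass1, Hnf4a, Asgr1, Tat, G6pc and Syt1. The search for CTGCAG was added after the files were read, and protein sequences were not analysed here. The result for 1 listed marker gene is not reported here.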

Additional observations from a re-analysis of the deposited data

How the results depend on the processing

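Cnmd, Gabbr2 and Clec2h stayed lower in DKO in each of 12 alternative fits, with log2 fold changes of -3.86 to -3.52, -2.55 to -2.15 and -2.69 to -2.15 without 1 library and -3.72 to -3.47, -2.37 to -2.11 and -2.41 to -2.17 under the other 6 settings. Over all genes edgeR called 1357 lower and 1446 higher, 539 lower and 3848 higher under total-count scaling, and 745 to 1200 lower and 674 to 1569 higher without 1 library, least without SKO replicate 2 (745 and 674), then without DKO replicate 3 (889 and 942) and SKO replicate 3 (890 and 894). Total-count scaling gave a median log2 fold change of all genes of 0.23 in place of 0.006 and a share of higher calls of 87.7% in place of 51.6%. With upper-quartile factors that share was 65.3%, and changes are read relative to the median gene. Of the 79 tested genes in the 13 lists 10 were lower and 12 higher, beside 9.70% and 10.3% of all genes tested. These counts were 6 and 24 under total-count scaling, where calls over all genes moved the same way. Without 1 library they were 4 to 10 and 5 to 17. The lowest were 4 and 5 without SKO replicate 2, then 6 and 7 without SKO replicate 3. Called neighbours numbered 1 lower and 0 higher, with 1 higher under total-count scaling and 0 to 1 higher without 1 library. Of 38 named genes called, 24 kept the call in all 12 fits and 14 lost it in at least 1, the cause of which was not tested. Among hepatocyte and stellate markers these were Alb, Apoa1, Apob, Ttr, Col1a1, Des, Hand2 and Pdgfrb. With Spearman's rho, 4 of the 9 genes named for likeness were among the 3 highest, ties included. No paired analysis was possible because the labels give the groups no shared replicate numbers. Depth limits Cnmd in DKO most, where 5 to 8 counts stand behind each level.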

Other observations

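The genes without an esterase function that ranked between Cnmd and Gabbr2, among those averaging 1 CPM or more, varied widely among libraries. The long non-coding RNA Gm34654 had 4, 5 and 6 counts in DKO libraries 1 to 3, against 51, 48 and 20 counts in SKO libraries 1 to 3 (log2 -3.26, edgeR adjusted p = 0.00168). It passed the low-count filter through its SKO libraries. Every DKO library lay below every SKO library, as in 19.4% of the genes tested. The pseudogene Gm4956 had 0.504, 0.928 and 1.09 CPM in DKO, against 4.13, 7.23 and 2.65 CPM in SKO, again without overlap (log2 -2.49, edgeR adjusted p = 0.0056). Serpina4-ps1 had 1.47, 12.9 and 3.89 CPM in DKO, against 12.3, 20.7 and 66.4 CPM in SKO, so its groups overlapped and it was not called (log2 -2.46, edgeR adjusted p = 0.193). Elovl3 likewise was not called by edgeR, though limma-voom called it lower over all 6 libraries (log2 -3.33, adjusted p = 0.0138), with DKO replicate 2 at 19.97 CPM, and without that library its log2 fold change was -4.50 (edgeR adjusted p = 0.0089). Serpina4-ps1 and Elovl3 were both highest in replicate 2 among the DKO libraries.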
